A study of Mus musculus with 12 samples.

Results

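A set of 6 leukocyte genes had group means above control with V-125 and below control with bexarotene. With V-125 the groups overlapped for all 6, and 1 tumor, V-125 replicate 1, held 66.7% to 94.5% of the difference from control. The median ratio to control was 1.95 with this tumor and 1.28 without it. The genes are Cd300a, Mpeg1, Slc11a1, Il10ra, Sla and Btk, 6 of the 2876 genes that the deposited tables for both agonists list in all. RNA was sequenced from 12 mammary tumors of female mice of genotype MMTV-neu, 4 from mice on control diet, 4 from mice fed V-125 and 4 from mice fed bexarotene, each agonist at 100 mg per kg of diet, for 10 days. V-125 and bexarotene are agonists of the retinoid X receptor (RXR), a nuclear receptor that pairs with other nuclear receptors. All 3 groups carry the Neu transgene, the rodent form of HER2, whose viral promoter is active in the mammary epithelium, and the mice keep their own immune system. The RNA came from whole pieces of tumor, so fewer leukocytes and less RNA per leukocyte cannot be told apart.

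The genes were chosen on the group means of normalized counts, the read counts divided by 1 size factor per tumor. Of the 1589 genes in the V-125 table and the 1784 in the bexarotene table, 497 were in both. Among these, 223 were above control with both agonists, 263 were below control with both, and 11 had opposite directions. In 9 of the 11 the V-125 mean was above control and the bexarotene mean below it, and the 6 leukocyte genes are among these 9. Every gene in either table has an unadjusted p-value under 0.05 in its own comparison. The 4 control tumors serve both comparisons. Because the direction itself chose the genes, their differences from control are given as a description, with no test. For V-125 and control the values of single tumors were used, and 4 values given in a row follow the replicate numbers from 1 to 4. For bexarotene the deposited mean of the 4 tumors, the authors' mean, was used, and it has no error here.

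Macrophages and other myeloid cells engulf particles, kill microbes and present antigen, and in tumors they are often the most abundant leukocytes. Their activity is balanced by activating receptors, which signal through tyrosine kinases, and by inhibitory receptors, which recruit phosphatases. The 6 genes cover both sides of this balance. Cd300a is an inhibitory receptor with immunoreceptor tyrosine-based motifs, Il10ra is the ligand-binding chain of the receptor for the anti-inflammatory cytokine interleukin 10, Mpeg1 is a pore-forming protein of phagosomes, and Slc11a1 (Nramp1) is a divalent metal transporter of the phagosome membrane. Btk is a cytoplasmic tyrosine kinase downstream of the B-cell receptor and of several myeloid receptors, and Sla is an adaptor that dampens signaling of antigen receptors. Il10ra, Sla and Btk are also expressed by lymphocytes, so the label myeloid holds most closely for Mpeg1, Slc11a1 and Cd300a.

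All 6 are protein-coding genes on different chromosomes, and the coordinates are those of GRCm38. Cd300a (ENSMUSG00000034652) lies on chromosome 11 from 114890041 to 114904654 on the plus strand. Mpeg1 (ENSMUSG00000046805) lies on chromosome 19 from 12460779 to 12465284, also on the plus strand, with 2 annotated exons. Slc11a1 (ENSMUSG00000026177) is on chromosome 1 from 74375195 to 74386062. The remaining genes are on the minus strand, Il10ra (ENSMUSG00000032089) on chromosome 9 from 45253837 to 45269149, Sla (ENSMUSG00000022372) on chromosome 15 from 66780819 to 66831829 and Btk (ENSMUSG00000031264) on chromosome X from 134542336 to 134583570. Sla lies entirely within the thyroglobulin gene Tg on the opposite strand, from 66670753 to 66850721, and Tg was in neither table. Whether the counting used strand is not given in the sources used here, and exons of Sla were not compared with exons of Tg. How far reads of Tg could enter the counts of Sla was therefore not determined. No other member had an exon that overlapped another annotated gene.

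RefSeq start sites on GRCm38.p6 gave promoter sequences for 4 of the 6, Cd300a, Mpeg1, Slc11a1 and Btk. They were searched because the genes varied together between tumors. PU.1, the transcription factor encoded by Spi1 that drives myeloid gene expression, binds sites around the letters GAGGAA, and RXR pairs bind repeats of AGGTCA. Each promoter of 300 bases, 250 of them before the start, was searched on both strands for both sets of letters. GAGGAA or its reverse TTCCTC was found in 3 of the 4 and in 28.3% of all 32851 promoters of this length. The letters begin 39 bases before the start in Cd300a and 152 bases before it in Slc11a1, and at base 10 after the start in Btk. For Btk this RefSeq start lies well inside the gene as given above, which on the minus strand begins at 134583570. AGGTCA was found in 1 of the 4, Slc11a1, where it begins 143 bases before the start without overlapping GAGGAA, and it or its reverse TGACCT was in 16.3% of all promoters. Windows of 30 bases around the matches are shown with the matched letters in capitals, at chr11:114889990-114890019 on the plus strand, chr1:74375039-74375068 on the plus strand, chrX:134583114-134583143 on the minus strand and chr1:74375048-74375077 on the plus strand.
Cd300a: ggctagcaggtcTTCCTCtccacaaggctg
Slc11a1, PU.1 letters: gggtatccaggaGAGGAAcgaaggtcaaaa
Btk: ctcagactgtccTTCCTCtctggactgtaa
Slc11a1, RXR letters: ggagaggaacgaAGGTCAaaactgtgggtt
In Slc11a1 the letters AGGTCA were found as a single copy, a nuclear receptor half-site, and not as a repeat. A match is a description of the sequence and not evidence of binding. In the 300 bases of Mpeg1 neither set of letters was present.

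Reads on genes ranged from 15571690 to 22574865 per tumor, and V-125 replicate 1, with 17487189, lay within this range. This tumor stood apart from the others in its leukocyte genes, and results are therefore given with and without it. No filter on low values was applied, and all 6 members were counted in all 8 tumors. Raw counts were between 944 and 3440 for Mpeg1 and between 22 and 187 for Btk, the member with the fewest reads in a tumor.

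With V-125 every one of the 6 genes had its highest value in the same tumor, replicate 1, and none of them separated the groups. For Cd300a the normalized counts were 369, 183, 127 and 63.4 in V-125-treated tumors and 113, 120.2, 63.9 and 84.5 in controls. V-125 replicates 1 to 3 were above every control tumor, whereas replicate 4 was marginally below the lowest of them. The mean was 186 ± 132 (SD, n = 4) against 95.4 ± 26.1 (SD, n = 4) in controls, a ratio of 1.95, and without V-125 replicate 1 the ratio was 1.31.

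Mpeg1, the pore-forming protein, had the most reads of the 6. Its normalized counts were 3515, 1898, 1452 and 998 in V-125-treated tumors and 1493, 1313, 756 and 1065 in controls. Only V-125 replicates 1 and 2 were above all control tumors, and replicate 4 was below the control mean. The means were 1966 ± 1096 (SD, n = 4) and 1157 ± 320 (SD, n = 4), a ratio of 1.70, which was 1.25 without V-125 replicate 1.

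Slc11a1, the metal transporter of phagosomes, came closest to a separation of the groups. Its normalized counts were 839, 338, 332 and 318 in V-125-treated tumors and 257, 321, 144 and 216 in controls. A single pair of tumors, V-125 replicate 4 and control replicate 2, crossed. The means were 457 ± 255 (SD, n = 4) and 235 ± 74.5 (SD, n = 4). Without V-125 replicate 1 the other 3 V-125-treated tumors lay within a narrow range, at 329 ± 10.1 (SD, n = 3), and the ratio to control was 1.40 in place of 1.95, the largest ratio without this tumor among the 6.

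For the receptor chain Il10ra the normalized counts were 713, 173, 149.9 and 108 in V-125-treated tumors and 178, 138, 91.8 and 86.2 in controls. The difference rested on replicate 1, since V-125 replicates 2 to 4 all fell inside the control range. The means were 286 ± 286 (SD, n = 4) and 123 ± 42.9 (SD, n = 4), so that with V-125 the SD was as large as the mean. The ratio to control was 2.32 with this tumor and 1.16 without it.

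Sla, the adaptor, had normalized counts of 190.1, 107, 66.5 and 66.6 in V-125-treated tumors and of 42.7, 68.2, 52.7 and 69.1 in controls. V-125 replicates 1 and 2 were above all control tumors, while replicates 3 and 4 were below the highest 2 of them. The means were 108 ± 58.2 (SD, n = 4) and 58.2 ± 12.8 (SD, n = 4), a ratio of 1.85, and without V-125 replicate 1 it was 1.38.

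Btk, the kinase, showed the largest ratio to control with all tumors and the smallest without replicate 1. Its normalized counts were 191, 35.1, 44.7 and 24.3 in V-125-treated tumors and 39.2, 46.2, 22.4 and 18.8 in controls. As for Il10ra, V-125 replicates 2 to 4 all fell inside the control range. With means of 73.8 ± 78.6 (SD, n = 4) and 31.6 ± 13.2 (SD, n = 4) the ratio was 2.33, and it was 1.10 without V-125 replicate 1.

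**Figure D1:**
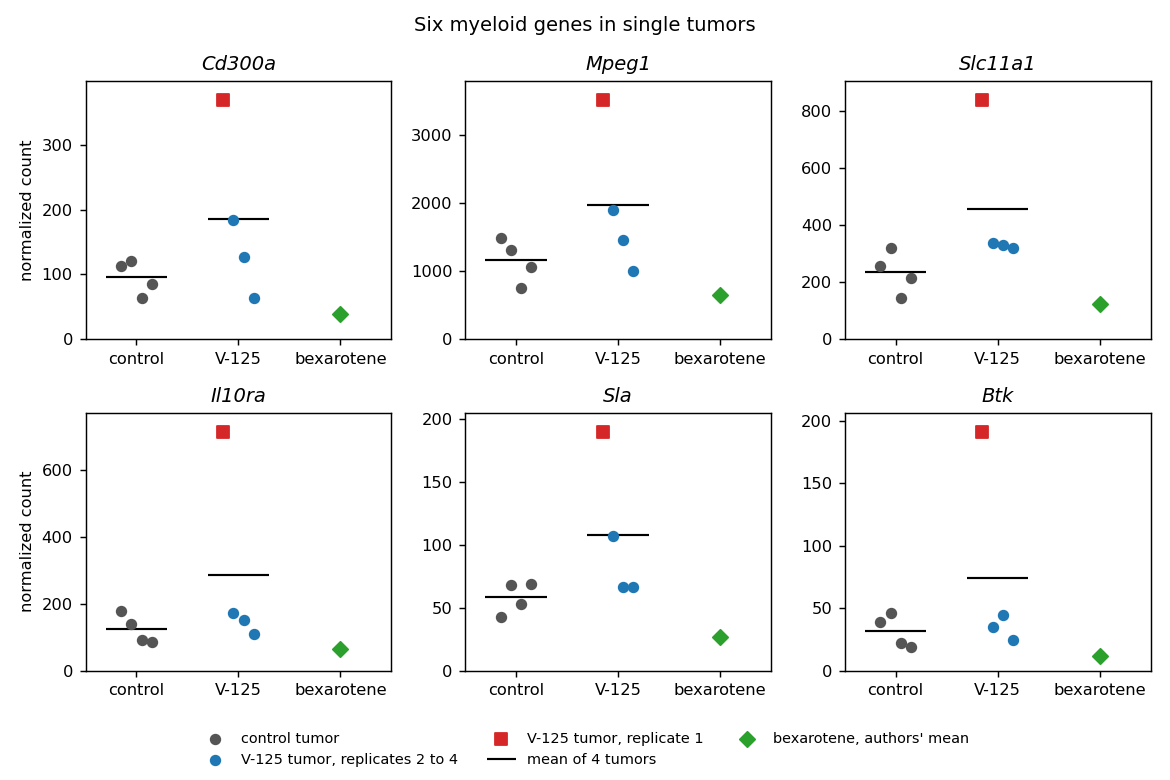
Normalized counts of the 6 genes (y axis, linear, a separate scale for each gene) in control and V-125-treated tumors, 1 point per tumor, with the mean of 4 tumors as a line and the authors' mean for bexarotene as a diamond. V-125 replicate 1 (square) is the highest of the 8 tumors for each gene, between 190.1 for Sla and 3515 for Mpeg1, and the bexarotene means lie below all 8 tumors.

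In none of the 6 genes, 0 of 6, was every V-125-treated tumor above every control tumor, whereas 335 of the 1589 genes of the V-125 table, 21.1%, had this separation. The whole table was selected on this difference. V-125 replicate 1 was the highest of the 8 tumors for 6 of 6 genes, and this was so for 393 of 817, or 48.1%, of the listed genes with a V-125 mean above control. Replicate 2 exceeded the control mean for 6 genes, replicate 3 for 6 and replicate 4 for 2, and replicate 4 was the lowest V-125-treated tumor for 5 of the 6. The median ratio of the 6 genes to the control mean was 3.72, 1.54, 1.29 and 0.869 in V-125 replicates 1 to 4. In control replicates 1 to 4 it was 1.21, 1.22, 0.688 and 0.903. On this measure V-125 replicates 2 and 3 were above all control tumors, and replicate 4 was inside their range. The genes were chosen on the V-125 mean, so nothing is read from this order. Gene by gene, replicate 2 was above the highest control tumor for 4 of the 6 and replicate 3 for 2.

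On the log2(normalized count + 1) scale the difference between V-125 and control means was largest for Slc11a1, at 0.88 (standard error 0.42, 4 tumors per group), and smallest for Mpeg1, at 0.65 (standard error 0.44). For Btk it was 0.80 (standard error 0.71). Without V-125 replicate 1 the differences of these genes were 0.55 (standard error 0.25) for Slc11a1, 0.32 (standard error 0.34) for Mpeg1 and 0.18 (standard error 0.39) for Btk. All 6 means remained above control without this tumor, with ratios from 1.10 to 1.40 and a median of 1.28. Except for Slc11a1 and Sla, the difference was then smaller than its standard error. Sla was at 0.45 (standard error 0.28).

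**Figure D2:**
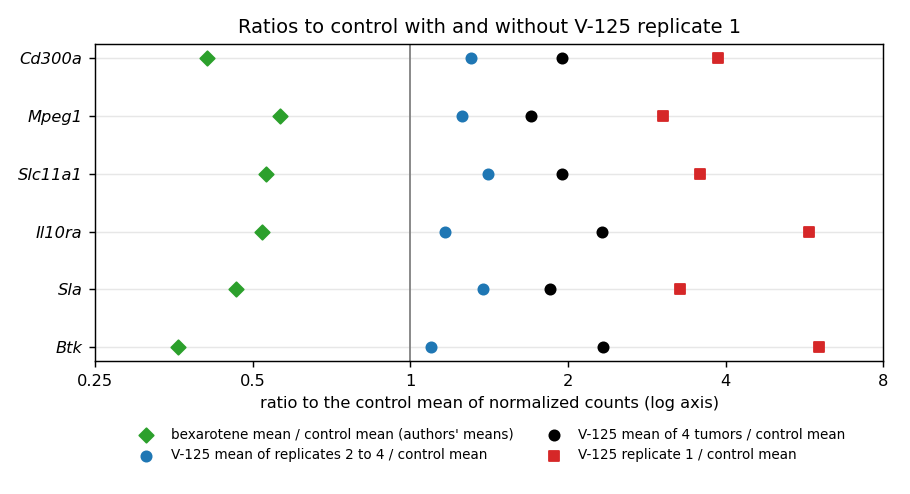
Ratio of normalized counts to the control mean (x axis, log scale) for each gene, for bexarotene, for V-125 without replicate 1, for all V-125-treated tumors and for V-125 replicate 1 alone. Replicate 1 alone was 3.04 to 6.04 times the control mean, and without it the V-125 ratios lie between 1.10 and 1.40, while all bexarotene ratios are below 1.

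The weight of 1 tumor can be given as its part of the excess, the sum over the 4 V-125-treated tumors of their differences from the control mean. An even spread would put 25% into each tumor. Replicate 1 held 66.7% of the excess for Sla, 68.0% for Slc11a1, 72.9% for Mpeg1, 75.7% for Cd300a, 90.7% for Il10ra and 94.5% for Btk. Among 605 genes above control with V-125 and with a mean normalized count of at least 50, the members included, the median was 28.9%, and 130 genes (21.5%) had more of their excess in replicate 1 than in the other tumors together. The median ratio of these 605 genes to control was 1.64 with and 1.53 without replicate 1, against 1.95 and 1.28 for the 6 genes.

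**Figure D3:**
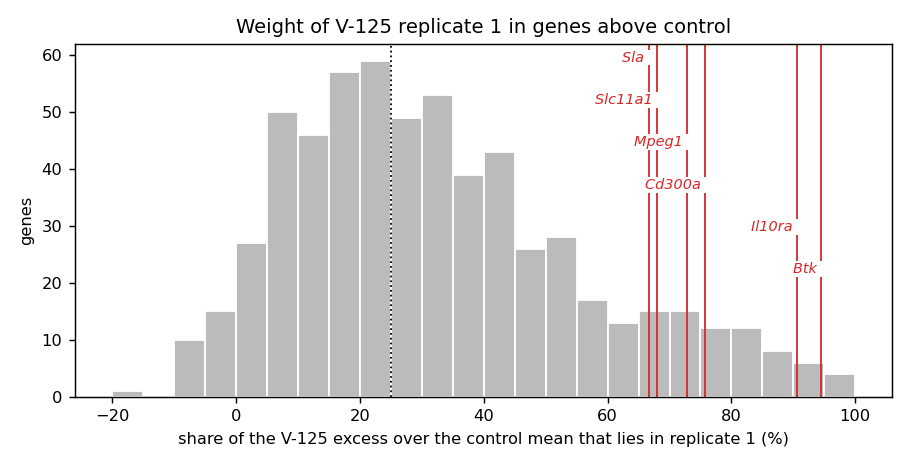
Histogram of the percentage of the V-125 excess over the control mean that lies in replicate 1 (x axis) for 605 genes above control (y axis, number of genes). Red lines mark the 6 leukocyte genes, from 66.7% for Sla to 94.5% for Btk, all to the right of the median of 28.9%, and the dotted line marks an even share of 25%.

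With bexarotene the 6 genes had authors' means between 0.359 and 0.564 times the control mean, with a median of 0.493. Mean normalized counts were 38.8 for Cd300a against 94.9 in the control tumors of the same table, 649 against 1150.4 for Mpeg1 and 124 against 233 for Slc11a1. They were 64.0 against 123 for Il10ra, 26.8 against 57.8 for Sla and 11.3 against 31.5 for Btk. Control means of genes with at least 10 normalized counts differed between the tables by a factor of 1.003 to 1.008, which allows the means to be set beside single tumors of the V-125 table. On this footing the bexarotene mean was below the lowest control tumor for 6 of 6 genes, as it was for 221 of the 272 genes in both tables with a lower bexarotene mean, or 81.2%. It was also below the lowest of all 8 tumors for each of the 6, against 33 of these 272 genes, or 12.1%. Of the 272 genes 263 were below control with V-125 too, which lowers that share, and the rule chose the 6 from the remaining 9, so nothing is read from it.

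As ratios of means with all tumors, Btk was farthest from control with either agonist, at 2.33 and 0.359 times, and Mpeg1 nearest, at 1.70 and 0.564. With V-125 this order did not hold without replicate 1, when Btk, at 1.10, was the nearest of the 6, nor on the log2 scale, where Slc11a1 was the farthest. The V-125 mean was 3.03 times the bexarotene mean for Mpeg1 and 6.52 times for Btk, with the other members between. Without V-125 replicate 1 it was between 2.23 times, for Mpeg1, and 3.21 times, for Cd300a, and for Btk it was 3.07 times. How the 4 bexarotene-treated tumors spread around their mean was not analysed here, and V-125 was not tested against bexarotene.

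Among the members, Mpeg1 was nearest to a ratio of 1 in both comparisons with all tumors. It was at 1.70 times control with V-125 and 0.564 times with bexarotene. Without V-125 replicate 1, Btk and Il10ra were nearer to 1 with V-125. Outside the rule were 3 other genes of the leukocyte lists that were in both tables, since their directions were equal. Itgam, an integrin chain of myeloid cells, was at 0.550 times control with V-125 and 0.435 times with bexarotene. Kit, from the mast cell list, was at 0.734 and 0.686, and which cells expressed it was not tested. Pik3cg, a phosphoinositide 3-kinase of leukocytes, was at 2.02 and 1.82, so that it was above control with both agonists.

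Per kilobase of gene length, the order of the members was nearly the same in all tumors. FPKM in control tumors were 14.8 ± 4.12 (SD, n = 4) for Mpeg1, 3.51 ± 1.12 (SD, n = 4) for Slc11a1, 1.96 ± 0.685 (SD, n = 4) for Il10ra and 1.12 ± 0.306 (SD, n = 4) for Cd300a. Btk, at 0.558 ± 0.233 (SD, n = 4), and Sla, at 0.351 ± 0.0765 (SD, n = 4), were the lowest, and these neighbors were within their spread. Mpeg1, Slc11a1, Il10ra and Cd300a took the first 4 places in this order in each of the 8 tumors, V-125 replicate 1 included. Sla was above Btk in V-125 replicate 2 and control replicate 4 and below it in the other 6 tumors.

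The 6 genes also varied together between tumors of the same group. This is not independent of the rule, since the V-125 means that chose them include the high values of replicate 1. Each value was taken on the log2(normalized count + 1) scale as a deviation from the mean of its own group, and Pearson's r was computed for each of the 15 pairs of genes over the 8 tumors. It was between 0.68, for Sla and Btk, and 0.98, for Cd300a and Mpeg1, with a median of 0.88. Over all 653796 pairs of 1144 listed genes with a mean normalized count of at least 50 the median was 0.01. V-125 replicate 1 is an extreme point for all 6 genes, and without it the median of the 15 pairs was 0.69 over 7 tumors. Cd300a and Mpeg1 remained at 0.95 and Il10ra and Btk at 0.86, while Sla had r of −0.09 with Il10ra and −0.10 with Btk. These values describe the tumors and share their size factors, and no test was made on them.

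**Figure D4:**
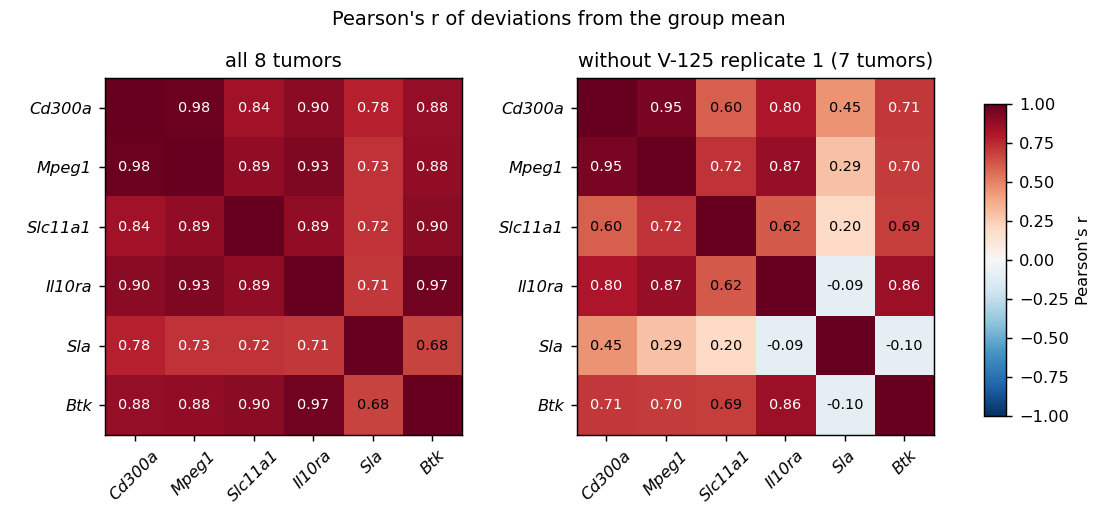
Pearson's r for each pair of the 6 genes over tumors, after subtraction of the group mean on the log2(normalized count + 1) scale, with all 8 tumors (left) and without V-125 replicate 1 (right). With all tumors r is between 0.68 and 0.98, and without replicate 1 the row of Sla is the lowest, from −0.10 with Btk to 0.45 with Cd300a.

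The 5 listed genes whose deviations were most like the mean of the 6, out of 1138 compared, were Laptm5 (r = 0.99), Fcgr3 (0.99), C3ar1 (0.98), Pla2g7 (0.97) and Dock10 (0.97), each over 8 tumors. Laptm5 is a lysosomal membrane protein of leukocytes, Fcgr3 an activating receptor for immunoglobulin G, C3ar1 the receptor for the complement fragment C3a and Pla2g7 a secreted phospholipase of macrophages. Laptm5 had normalized counts of 2661, 900.5, 805 and 584 in V-125-treated tumors and of 755, 777, 392 and 522 in controls. Fcgr3 had 234, 82.6, 69.5 and 56.0 with V-125 and 63.4, 80.9, 43.1 and 47.0 in control tumors. Both genes again had their highest value in V-125 replicate 1, with replicate 4 inside the control range. Without replicate 1, r was 0.98 for Laptm5, 0.96 for Fcgr3, 0.89 for C3ar1, 0.88 for Pla2g7 and 0.88 for Dock10 over 7 tumors. Of the 31 genes with r above 0.9 over 8 tumors, 5 were above it without replicate 1. None of the 5 genes was in the bexarotene table, so their values with bexarotene were not analysed here.

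Other genes with a V-125 mean above and a bexarotene mean below control included Kcnj10 and Stra6l. Kcnj10, a potassium channel, was at 1.81 times control with V-125, 1.47 times without replicate 1 and 0.462 times with bexarotene. Stra6l had raw counts of 91, 16, 8 and 1 in V-125-treated tumors and of 10, 7, 5 and 9 in controls, and 99.2% of its excess was in replicate 1. Il20rb, a receptor chain for cytokines of the interleukin 20 family, and the long non-coding RNA Gm35696 were opposed the other way. Il20rb was at 1378 ± 418 normalized counts (SD, n = 4) after V-125, 2494 ± 1168 (SD, n = 4) in controls and an authors' mean of 4767 with bexarotene. Gm35696 was at 0.340 times control with V-125 and 3.73 times with bexarotene.

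Around the 6 genes, 159 other genes of leukocyte markers and of the members' pathways were looked up. The V-125 table held 22 of them, 19 above control and 3 (Itgam, Kit and Lcp1) below it, and 817 of its 1589 genes, 51.4%, were above control. V-125 replicate 1 was the highest of the 8 tumors for 15 of the 19, and for 393 of the 817, or 48.1%. The bexarotene table held 35, 32 below control and 3 (Pik3cg, Ibtk and Ikzf1) above it, and 1012 of its 1784 genes, 56.7%, were below control. Most genes listed for one agonist were thus absent from the table of the other, and 3 were in both. Each table holds only genes past its p-value threshold, so a gene that is absent has no value here.

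A list of 21 genes held inhibitory receptors of myeloid cells, members of their gene families and phosphatases. Its counts are therefore not of inhibitory receptors alone. Of the 21, 5 were in the V-125 table and all 5 were above control, Cd300a, Cd300lg, Lair1, Pirb and Ptpn6. Cd300lg, of the same gene family as Cd300a and known from endothelial cells, separated the groups, with a mean of 276 ± 26.5 (SD, n = 4) against a control mean of 99.9 ± 38.7 (SD, n = 4), and its replicate 1, at 294, was not the highest. Ptpn6 (SHP-1), the phosphatase that such receptors recruit, had 1139 ± 186 (SD, n = 4) and 885 ± 81.0 (SD, n = 4), also without overlap, and its highest value, 1415, was in V-125 replicate 1. Pirb and Lair1 too had V-125 replicate 1 at the top, but overlapping groups, with Lair1 at 356, 182, 204 and 139 in V-125-treated tumors and at 148, 131, 45.5 and 87.1 in controls. With bexarotene, 4 genes of this list were listed, all below control, and Cd300c2, another member of the Cd300 family, was at 32.7 against 91.9. Cd300ld2, also of this family, was at 5.81 with bexarotene and listed at 0 in control.

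From 20 genes of microbial killing and the phagosome, Mpeg1, Slc11a1 and Slc11a2 were in the V-125 table, all above control. Slc11a2, the paralog of Slc11a1 that most cells express, was at 543 ± 14.2 normalized counts (SD, n = 4) and 427 ± 22.1 (SD, n = 4), without overlap. With bexarotene, 6 genes of this list were listed, all below control, among them Cyba, a subunit of the phagocyte oxidase, at 215 against 621 and the lysosomal protease Ctss at 890.1 against 1740.2. Of 14 genes of the interleukin 10 pathway, Il10ra alone was in the V-125 table. Bexarotene had 4 of them listed and below control, Il10ra, Stat3, Bcl3 and Hmox1, with Bcl3 at 0.298 times and Hmox1 at 0.320 times control.

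For the kinases and adaptors around Btk and Sla, 7 of 26 genes were in the V-125 table, all above control. Pik3cg and Pik3ap1, the adaptor that links B-cell and other receptors to phosphoinositide 3-kinase, separated the groups, with Pik3cg at 2630 ± 593 normalized counts (SD, n = 4) against 1301 ± 183 (SD, n = 4). V-125 replicate 1 was the lowest V-125-treated tumor for Pik3cg, at 1794. Pik3cd, a leukocyte isoform of the same kinase family, had 597 in V-125 replicate 1 and between 124.8 and 174.8 in the others, within the control range of 83.1 to 184. With bexarotene, 9 genes of this list were below and 2 above control, and those below included the adaptors Tyrobp, at 141 against 329, and Vav1, at 54.8 against 129.7.

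Markers of macrophages and of other leukocytes were examined for the same tumor. Of 18 macrophage and monocyte genes, Fcgr1, Mertk and Cx3cr1 were above and Itgam below control with V-125. Their summed normalized count was 1989 in V-125 replicate 1, between 1101 and 1520 in the other V-125-treated tumors and between 851 and 1316 in control tumors. Fcgr1, a high-affinity receptor for immunoglobulin G, had 501 in replicate 1 and between 100.5 and 130.1 in the others. With bexarotene 8 of the 18 were listed and all 8 were below control, among them Cd14 at 310 against 1548, C1qa at 752 against 2023 and Csf1r, the receptor for macrophage colony-stimulating factor, at 454 against 806. Of 15 pan-leukocyte genes, Laptm5, Itgb2 and Lcp2 were above and Lcp1 below control with V-125, and their sum, most of it Lcp1, was 11804 in replicate 1, between 6307 and 7775 in the others and between 8177 and 10083 in control tumors. Of these pan-leukocyte genes 6 were below and 1, Ikzf1, above control with bexarotene.

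Lymphocyte markers stood out in the same tumor. Of 22 T and NK cell genes, Cd2 and Cd28 were in the V-125 table, with raw counts of 191 and 64 in V-125 replicate 1, of at most 24 and 6 in the other V-125-treated tumors and of at most 7 and 2 in control tumors. Their summed normalized count was 261 in replicate 1, between 3.17 and 29.8 in the others and between 0 and 6.39 in control tumors. From 10 B and plasma cell genes, Mzb1 was listed, with 47 reads in replicate 1 and at most 7 in any other tumor. Of the mast cell genes Mcpt4 and Kit were listed, and Mcpt4 had 29 reads in replicate 1 and at most 2 elsewhere. Kit went the other way, at 13996 normalized counts in replicate 1 against a control mean of 16412.5. The control mean of Mcpt4 was 0.200, and which cells gave the reads of Kit was not tested. None of these markers was at 0 in every control tumor. The bexarotene table listed 1 gene of the T and NK cell list, Zap70, at 1.25 against 9.65, and none of the B cell list, and from 11 dendritic cell genes Itgax, at 48.1 against 162. No gene of the 10 neutrophil markers was in either table. Since Il10ra, Sla and Btk are also lymphocyte genes, the part of lymphocytes in their values was not tested.

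**Figure D5:**
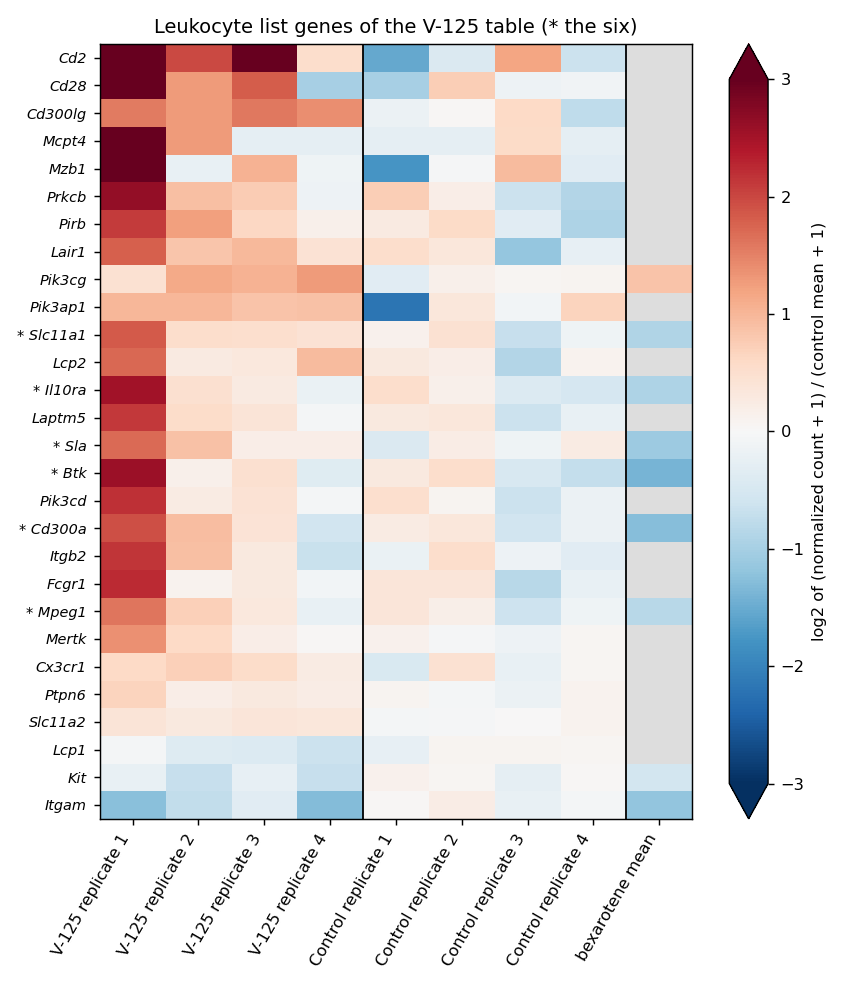
Heat map of the 28 leukocyte list genes in the V-125 table (rows, asterisks at the 6 members) in 8 tumors and in the authors' bexarotene mean (columns), as log2 of (normalized count + 1) over (control mean + 1), with gray for genes that are not in the bexarotene table. The color scale is cut at both ends. In the column of V-125 replicate 1 the genes Cd2, with 191 reads there, Cd28, Mzb1 and Mcpt4 share the darkest red. The members with a bexarotene value are blue in the last column.

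The epithelial and vascular parts of the tumors were listed in few genes. Of 8 mammary epithelial genes, Epcam and Cdh1 were in the V-125 table, at 0.758 and 0.757 times control, and their sum in V-125 replicate 1, 36469, lay between those of the other V-125-treated tumors, 34079 to 41053. The sums in control tumors were 43377 to 62618. Most of each sum is Epcam, at 31904 normalized counts in V-125 replicate 1. Cdh1 alone was at 4565 in this replicate, the lowest of all V-125-treated and control tumors. Krt8 and Krt18 were below control in the bexarotene table. The endothelial gene Kdr was above control with V-125 without overlap, at 735 ± 134 normalized counts (SD, n = 4) against 408 ± 108 (SD, n = 4), and had its lowest V-125 value, 539, in replicate 1. No gene of the fibroblast list was in either table, and of the adipocyte list Fabp4 was above control with bexarotene.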

How the data were processed

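RNA from 8 of the 12 tumors, 4 V-125-treated and 4 control, was analysed per tumor, and the bexarotene group as a mean. The sample labels gave the groups and the replicate numbers. The labels name poly(A) libraries, and the submitters' processing notes name STAR (2.6.1d), featureCounts (1.5.0-p3) and limma. The genome build is not given in the sources used here, but gene coordinates match GENCODE on GRCm38, to the base for 5 of the 6 genes.

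The authors deposited raw read counts, normalized counts (a signal, each count divided by 1 size factor per tumor), FPKM and group means of the normalized counts. The authors also deposited fold changes, p-values and adjusted p-values of each agonist against control, and these were not used, except to see that every listed p-value is below 0.05. Reads on genes were recovered from count, FPKM and gene length.

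Ratios are of mean normalized counts, log2 values used a pseudocount of 1, and no test was made, since the genes were chosen on these means and the tables hold only selected genes. The members and lists were chosen with earlier results of these data known. Besides the members, the genes named are the 5 most alike in same-group deviations, the other opposed genes (1 of them is not reported here) and, per list, up to 4 genes with the most reads, and a few more were named after their values were seen. Calculations used Python 3.11.15 with numpy 2.4.6 and pandas 2.3.3 and were tested on simulated data. Alternatives were library totals as the scale, group medians, other pseudocounts, a filter at 10 normalized counts and leaving out each tumor.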

Additional observations from a re-analysis of the deposited data

Results flagged for a closer look

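In a group of 4 tumors, a value was singled out when its gap to the nearest other tumor as a share of the group's range exceeded Dixon's critical value, which chance gives in about 1 of 20 groups. Among 38 named genes in both groups, 76 groups in all, 19 values met this, 14 of them in V-125 replicate 1. The genes looked at include the members, chosen on means that replicate 1 raises, genes chosen for their likeness to them and genes named after their values were seen, so the number of such values cannot be set against the chance rate. Genes that vary together are also not independent. The members Slc11a1, Il10ra and Btk were among them, with 839, 713 and 191 normalized counts in V-125 replicate 1. For Cd300a, Mpeg1 and Sla the gap to V-125 replicate 2 was smaller than this limit.

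The other values in V-125 replicate 1 were those of the similar genes Laptm5 (2661), Fcgr3 (234), Pla2g7 (940.2) and Dock10 (374), of Fcgr1 (501) and Pik3cd (597), of the opposed gene Stra6l (93.0) and of the lymphocyte and mast cell genes Cd2 (195), Cd28 (65.4), Mzb1 (48.0) and Mcpt4 (29.6), all in normalized counts. In control tumors the highest values of Gm35696 (389.6) and Itgb2 (246), both in replicate 2, of Epcam (53468) in replicate 1 and of Mcpt4 (0.799, a single read) in replicate 3 stood apart, as did the lowest value of Lcp1, 7178 in replicate 1.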

How the results depend on the processing

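Of 127 values under other settings, 123 stayed within the spread of the replicates or within 1.5 times the count, 4 moved further, and none changed direction. For the V-125 ratios this spread was the SD of the V-125-treated tumors, which replicate 1 itself widens. The tally therefore cannot show how far these ratios depend on replicate 1. Leaving out V-125 replicate 1 moved the ratios of single members by over 1.5 times for Il10ra, from 2.32 to 1.16, and for Btk, from 2.33 to 1.10, and the median ratio of the 6 genes from 1.95 to 1.28. With each tumor left out in turn this median was between 1.28 and 2.26, and the median difference on the log2 scale between 0.31 and 1.07. Group medians in place of means gave 1.41 and library totals 1.95. The number of members without overlap was between 0 and 2. It was 2, Cd300a and Slc11a1, without V-125 replicate 4, where 25.5% of listed genes did not overlap, and 1, Slc11a1, without control replicate 2, where 24.4% did not. Over all listed genes the number was between 382 and 431 with each tumor left out, against 335 with all. The median r of the member pairs was between 0.69, without V-125 replicate 1, and 0.91, and it was 0.79 with Spearman's rho. The number of other list genes above control with V-125 was 19 without any 1 tumor, an alternative chosen after the data were seen. No paired analysis was possible because the results come from no test, and equal replicate numbers mark different mice. Depth limits Btk and Sla most, with 22 and 37 reads in their lowest tumors.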
